A study of Mus musculus with 12 samples.

Results

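The 9 genes described here encode the lipid-sensing nuclear receptors of the PPAR, RXR and LXR families with 3 of their coregulators, of 41388 genes counted in the series. They were chosen by name: Pparg (PPARγ), Ppard (PPARδ), Rxra (RXRα), Rxrb (RXRβ), Nr1h2 (LXRβ), Nr1h3 (LXRα), Ppargc1b (PGC-1β), Ncor1 (NCoR1) and Ncoa1 (SRC-1). All 9 passed the filter on low counts, with 36 to 2326 reads per library. RNA sequencing was done on mouse peritoneal macrophages recruited by thioglycolate, an irritant broth, isolated on day 4 and stimulated the next day for 8 h. The 4 groups of 3 libraries were cells labelled PPARγ knockout with 250 uM palmitate plus 100 ng/ml LPS, LysM-Cre control cells with the same stimulus, cells labelled PPARγ knockout with vehicle (BSA-PBS), and LysM-Cre control cells with vehicle. Palmitate is a saturated fatty acid and LPS is the endotoxin of Gram-negative bacteria, and cells that received both are called stimulated below. LysM-Cre expresses Cre recombinase from the lysozyme M locus, which is active in myeloid cells, and both genotypes carried it. The labels do not say whether replicates came from separate mice or cultures, so p-values measure only the spread between these samples, which may be technical. In bulk RNA, fewer cells of a type and less RNA per cell cannot be told apart.

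PPARs and LXRs bind DNA as heterodimers with an RXR partner, at paired copies of a hexamer close to AGGTCA. PPARs respond to fatty acids and their derivatives and drive genes of lipid uptake, storage and oxidation, while LXRs respond to oxysterols and drive genes of cholesterol efflux and fatty acid synthesis. Ligands exchange corepressors such as NCoR1 for coactivators such as SRC-1, and PGC-1β coactivates genes of oxidative metabolism. In macrophages these receptors are known for control of foam cell lipid handling and for restraint of inflammatory genes.

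The start regions of 4 receptors are shown because their transcript levels differed the most among the receptors or, for Nr1h2, because it is the close relative of one that did. They come from RefSeq on GRCm38.p6, 250 bases before to 50 after an annotated start, on the gene's own strand, with matches to the searched motifs in capitals.
Pparg, chr6:115360894-115361193, plus strand: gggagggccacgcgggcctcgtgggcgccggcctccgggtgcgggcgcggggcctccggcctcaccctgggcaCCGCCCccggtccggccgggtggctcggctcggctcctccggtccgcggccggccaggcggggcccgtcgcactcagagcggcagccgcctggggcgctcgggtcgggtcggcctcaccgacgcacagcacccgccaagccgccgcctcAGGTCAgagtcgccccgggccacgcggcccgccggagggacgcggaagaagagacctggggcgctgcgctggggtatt
Ppard, chr17:28232504-28232803, plus strand: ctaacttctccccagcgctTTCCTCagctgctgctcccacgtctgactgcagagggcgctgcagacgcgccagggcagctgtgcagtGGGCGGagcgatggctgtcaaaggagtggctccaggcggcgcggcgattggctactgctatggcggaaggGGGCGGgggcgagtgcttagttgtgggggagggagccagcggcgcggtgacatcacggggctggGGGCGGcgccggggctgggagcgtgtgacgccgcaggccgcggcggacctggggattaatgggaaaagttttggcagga
Nr1h3, chr2:91194986-91195285, minus strand: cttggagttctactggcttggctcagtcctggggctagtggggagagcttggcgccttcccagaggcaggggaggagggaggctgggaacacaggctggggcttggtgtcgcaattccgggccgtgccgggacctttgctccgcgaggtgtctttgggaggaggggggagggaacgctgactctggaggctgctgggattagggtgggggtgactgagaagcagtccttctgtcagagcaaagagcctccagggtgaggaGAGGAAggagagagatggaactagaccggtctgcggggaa
Nr1h2, chr7:44553916-44554215, minus strand: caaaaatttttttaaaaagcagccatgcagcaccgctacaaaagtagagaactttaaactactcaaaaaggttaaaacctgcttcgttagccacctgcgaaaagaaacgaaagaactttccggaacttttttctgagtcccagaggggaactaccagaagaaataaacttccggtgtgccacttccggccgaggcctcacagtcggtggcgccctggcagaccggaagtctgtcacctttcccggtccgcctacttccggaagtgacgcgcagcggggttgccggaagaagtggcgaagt
The motifs searched on both strands were AGGTCA (the receptor hexamer), GGGCGG (the Sp1 type), TATAAA (the core promoter type), TGACTCA (the AP-1 type) and GAGGAA (the PU.1 type). Positions are counted from the start, with bases before it negative, and give the motif's first base on the gene's strand. RefSeq gave 3 windows for Pparg and 2 for Nr1h3, of which the first in the table is printed. The printed Pparg window held AGGTCA on the gene's strand at -28 and GGGCGG on the opposite strand at -177. The Ppard window held GGGCGG on its strand at -163, -93 and -29, and GAGGAA on the opposite strand at -231. The printed Nr1h3 window held 1 match, GAGGAA on its strand at 11, and the Nr1h2 window held none. The second Pparg window (chromosome 6, 115362099 to 115362398) held AGGTCA at -9, GGGCGG at -127 and GAGGAA at -240 on the gene's strand. On the opposite strand it held GGGCGG at -210 and TATAAA at -29. The third Pparg window (115421816 to 115422115) and the second of Nr1h3 held no match. GC content was 80.3%, 62.7% and 40.3% in the 3 Pparg windows, 68.3% in that of Ppard, 62.7% and 63% in those of Nr1h3 and 50.7% in that of Nr1h2, against a median of 52.7% over 32851 windows of all genes.

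Windows of 8 of the 9 genes were searched, 14 in all. Ppargc1b was not among them, because member windows on chromosome 18, where it lies, were left out of the search. AGGTCA was in 3 of the 14 windows, from 2 genes (Pparg and Rxra), and in 16.3% of all windows. GGGCGG was in 8 of the 14, from 6 genes, against 35.7% of all windows. GAGGAA was in 3 of the 14 (28.3% of all), TATAAA in 1 (13.6% of all) and TGACTCA in 0 (5.2% of all). None of the matches overlapped another. These are letter matches in a window and not binding sites.

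The libraries held 17960457 to 22696385 counts. Of 7 macrophage markers, Cd68 had 3839 to 7263 CPM and Csf1r 354 to 815 CPM over the 12 libraries. Levels were lower for Mertk (31.3 to 149 CPM), Fcgr1 (26.55 to 111 CPM) and Lyz2 (18.7 to 120 CPM). In libraries labelled knockout 3 of the 7 were higher and 1 lower after stimulation, and 0 higher and 1 lower in vehicle. The 4 adipocyte markers, which would come from fat where Pparg is a defining gene, were at 0 in 3 groups and summed to at most 0.0505 CPM in a vehicle control library. Neutrophil markers summed to 144 to 174 CPM in stimulated libraries labelled knockout and 107 to 116 CPM in stimulated controls, and to 110 to 113 CPM in vehicle libraries labelled knockout and 76.6 to 80.4 CPM in vehicle controls, with Ly6g, a neutrophil-defining gene, at 0 in all 4 groups. After stimulation 2 of the 4 tested neutrophil markers were higher and 1 lower in libraries labelled knockout, and in vehicle 1 was higher and 0 lower. In vehicle Mmp8 averaged 43.7 CPM in libraries labelled knockout against 16.4 CPM in controls, and Csf3r 63.05 against 57.2 CPM in that order. Csf3r made up most of the sum (136.5 CPM in stimulated libraries labelled knockout, against 90.6 CPM in stimulated controls), while S100a8 averaged 6.93 CPM against 15 CPM in the same order. Fibroblast and mesothelial markers summed to 181 to 330 CPM in stimulated libraries labelled knockout and 124 to 143 CPM in stimulated controls, with 5 of 8 higher and 0 lower, and to 144 to 189 CPM in vehicle libraries labelled knockout and 110 to 132 CPM in vehicle controls, with 0 of 8 called. Endothelial markers summed to 9.7 to 10.7 CPM in stimulated libraries labelled knockout and 3.47 to 3.67 CPM in stimulated controls, and mast cell markers to 3.84 to 5.82 and 2.21 to 3.73 CPM in the same order, with 1 of 2 tested markers higher in each list. In vehicle 1 of 2 tested mast cell markers was higher, at summed levels of 1.47 to 2.27 CPM in libraries labelled knockout and 1.36 to 1.68 CPM in controls. Mitochondrially encoded genes held 0.506 to 0.524% of counts in stimulated libraries labelled knockout and 0.606 to 0.676% in stimulated controls, and ribosomal protein genes 0.579 to 0.598% and 0.659 to 0.695% in that order. The part of these cells and shares in the genotype results below was not tested. Vehicle replicate 1 labelled knockout stood apart from replicates 2 and 3 of its group on the second principal component (31.8, against -6.92 and -10). That component held 3.96% of the variance and the first 86.2%. Ribosomal protein genes held 0.93% of counts in that library, against 0.674% and 0.684% in replicates 2 and 3, and the part of this share was not tested. Genotype and interaction results are given with and without that library where they change.

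**Figure D1:**
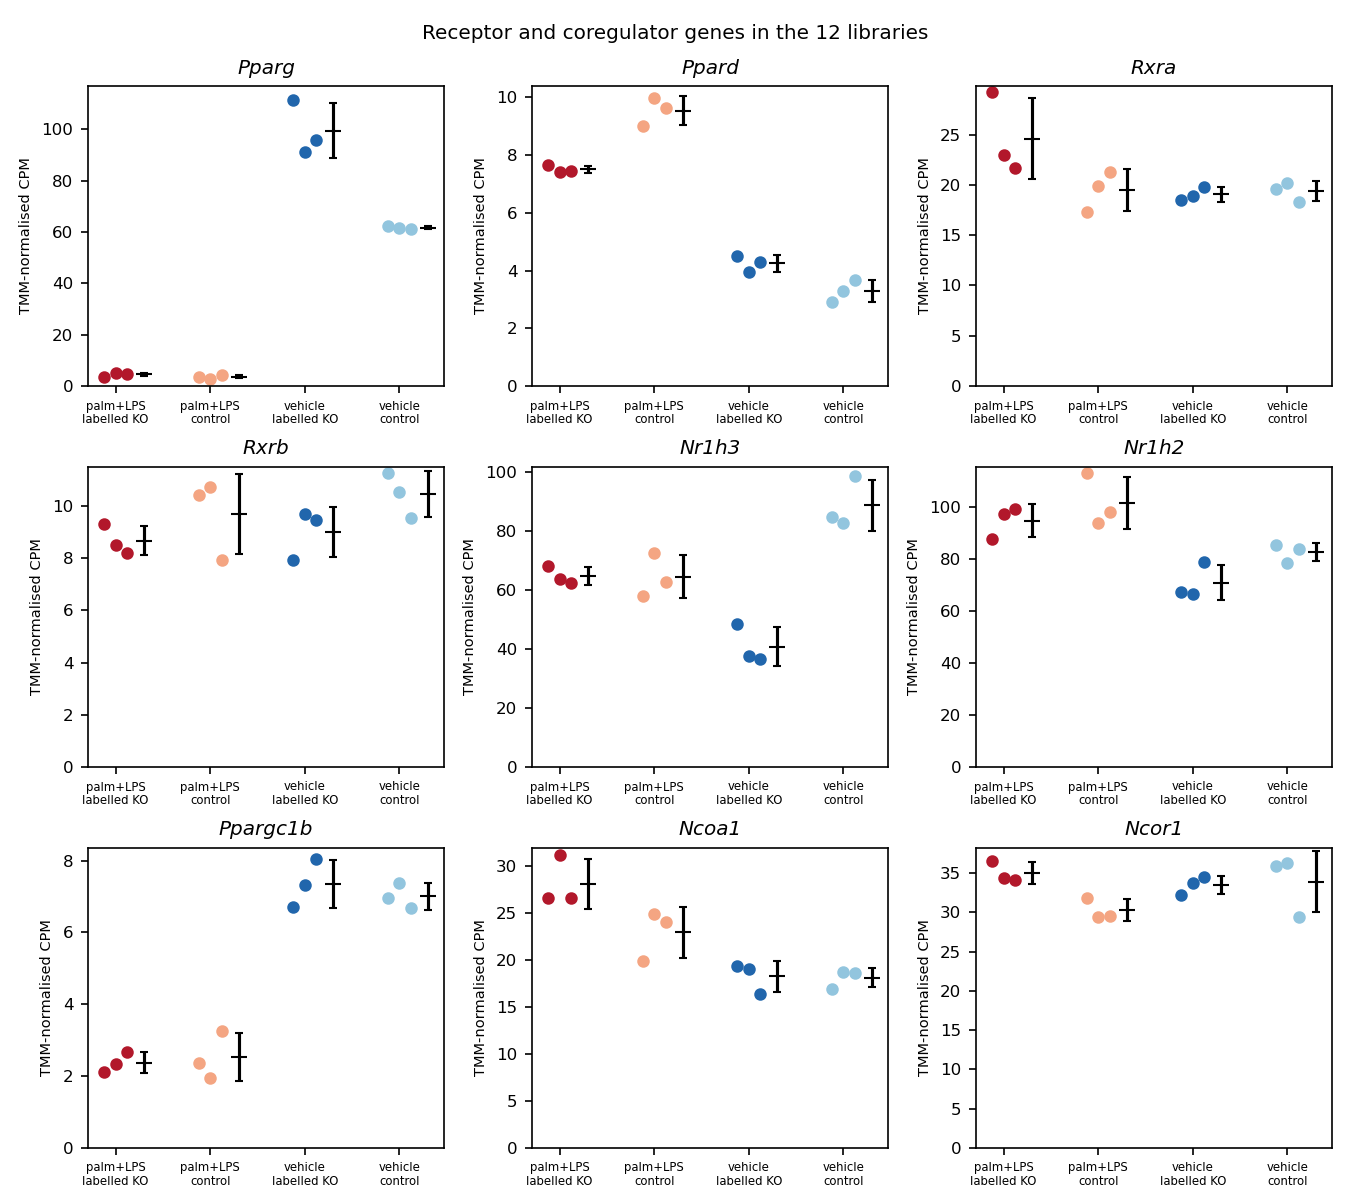
TMM-normalised CPM (y axis, linear from 0, scaled by panel) of the 9 genes in each of the 12 libraries, as points, with the group mean ± SD as a bar; groups run from stimulated libraries labelled knockout to vehicle controls. Pparg stands at 2.86 to 5.04 CPM in the 6 stimulated libraries and at 61 to 111 CPM in the 6 vehicle libraries, and Nr1h3 is lowest in vehicle libraries labelled knockout.

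Stimulation changed most of these genes, and the largest change was in Pparg. Levels are TMM-normalised CPM, which corrects counts for sequencing depth and for composition, and changes are log2 fold changes ± SE from edgeR's quasi-likelihood test, called at an adjusted p under 0.05. In controls 6 of the 9 genes were called, 3 higher (Ppard, Nr1h2, Ncoa1) and 3 lower (Pparg, Nr1h3, Ppargc1b), where 66.7% of 12914 genes tested were called (32% higher, 34.7% lower). In libraries labelled knockout 7 of the 9 were called, 5 higher (Ppard, Rxra, Nr1h2, Nr1h3, Ncoa1) and 2 lower (Pparg, Ppargc1b), against 69.4% of all genes (33.7% higher, 35.6% lower). These shares were near the background, so single genes are described by size and direction. The 2 treatments did not overlap for the 7 members called in libraries labelled knockout (70.4% of all genes) or for the 6 called in controls (74.8% of all genes). The median change of the 9 was -0.11 in controls, against -0.05 for all genes, and 0.37 in libraries labelled knockout, against -0.06 for all genes.

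Cell type markers moved with stimulation as well. Of the 7 macrophage markers 4 were higher and 3 lower in libraries labelled knockout, and 3 higher and 2 lower in controls. The 4 markers of large peritoneal macrophages summed to 10.5 to 14.1 CPM in stimulated and 25.1 to 31.8 CPM in vehicle libraries labelled knockout, and to 11.3 to 13.8 CPM in stimulated and 22.45 to 23.9 CPM in vehicle controls, with 3 lower and 1 higher in each genotype. Dendritic cell markers summed to 8.12 to 9 CPM in stimulated and 1.15 to 1.43 CPM in vehicle libraries labelled knockout, and to 7.12 to 8.55 CPM in stimulated and 0.881 to 1.79 CPM in vehicle controls. Mitochondrially encoded genes held 0.506 to 0.524% of counts in stimulated and 0.754 to 1.11% in vehicle libraries labelled knockout, and 0.606 to 0.676% in stimulated and 0.973 to 1.035% in vehicle controls. Their part in the stimulation results was not tested.

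In the fit of all 12 libraries only Pparg and Nr1h3 were called between the labelled genotypes, both in vehicle. In vehicle 2 of 9 were called, 1 higher (Pparg) and 1 lower (Nr1h3), where 3.8% of all genes were called (2.11% higher, 1.69% lower). The labelled genotypes did not overlap in vehicle for 3 members (Pparg, Ppard and Nr1h3), against 19.8% of all genes. In stimulated libraries edgeR called 0 of 9, where 16.1% of all genes were called (10% higher, 6.1% lower). DESeq2 also called 0. At an unadjusted edgeR p under 0.05 there were 4. The last of them, Ncor1 (edgeR unadjusted p = 0.0395), ranked 3655 of 12914 genes by p-value. In vehicle there were also 4, and the last of them, Nr1h2 (edgeR unadjusted p = 0.0308), ranked 1570. The interaction, which is the response to stimulation in libraries labelled knockout minus that in controls, was called for 2 of 9, 1 higher (Nr1h3) and 1 lower (Ppard), against 8.05% of all genes (4.7% higher, 3.35% lower).

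**Figure D2:**
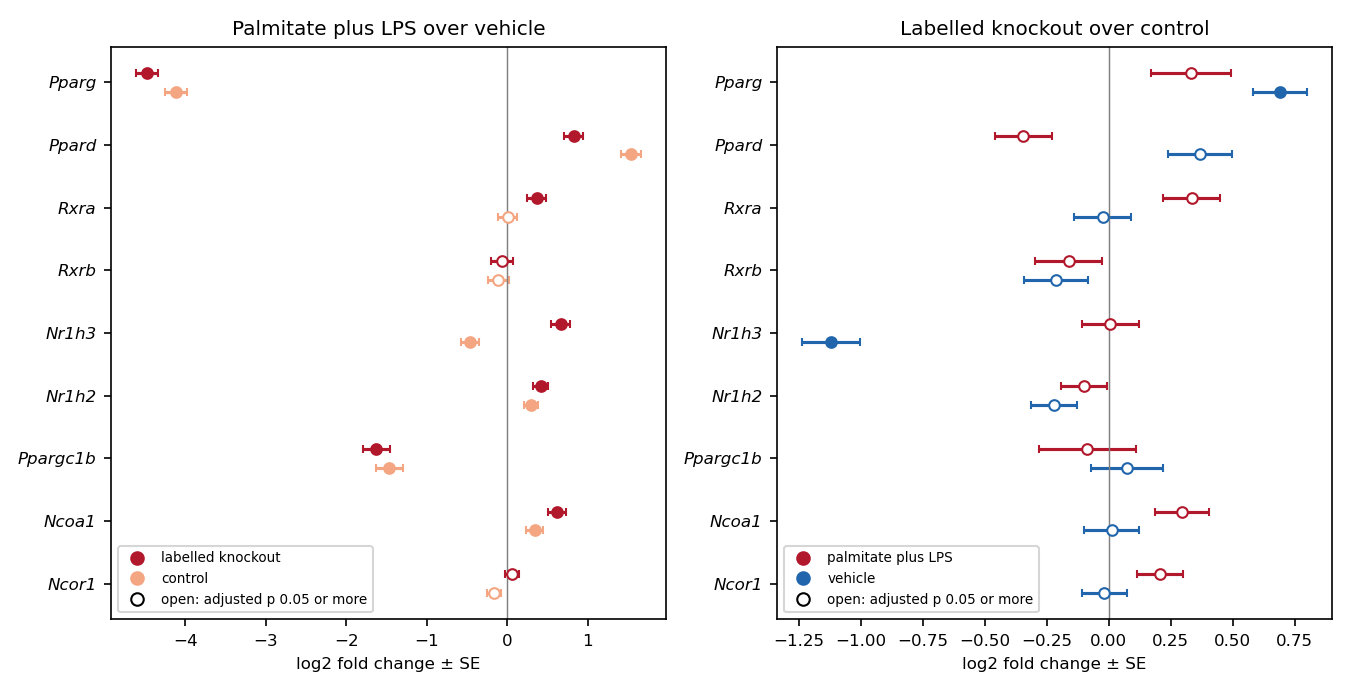
Log2 fold change (x axis) of each of the 9 genes with stimulation (left panel) and by labelled genotype (right panel), as points with ± SE, filled where called (edgeR adjusted p under 0.05) and open otherwise; the panels differ in scale. Pparg stands at -4.11 and -4.47 in the treatment comparisons, and Nr1h3 lies on opposite sides of 0 in them (-0.46 in controls and 0.67 in libraries labelled knockout).

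Pparg encodes PPARγ, the gene named in the genotype label, and its count was higher, not lower, in vehicle libraries labelled knockout. The gene lies on the plus strand of chromosome 6 in GRCm38, the build of all coordinates here (115361221 to 115490401, ENSMUSG00000000440). Pparg stood at 111, 91 and 95.9 CPM in vehicle libraries labelled knockout, against 62.3, 61.6 and 61 CPM in vehicle controls. Each of the vehicle libraries labelled knockout was above each of the controls. The difference was 0.69 ± 0.11 (edgeR adjusted p = 0.00124), and 0.6 ± 0.08 without the replicate that stood apart. The count covers all 1984 exonic bases of the gene, so it does not check the deletion of part of it. Each genotype difference below is read from labels that this count does not bear out and cannot refute.

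After stimulation Pparg had 3.59, 5.04 and 4.73 CPM in libraries labelled knockout, against 3.63, 2.86 and 4.145 CPM in controls. These groups overlapped, and the difference of 0.33 ± 0.16 was not called (edgeR adjusted p = 0.177). Relative to vehicle, Pparg was 22.2-fold lower in stimulated libraries labelled knockout (-4.47 ± 0.14, edgeR adjusted p = 8.29e-14). It was 17.3-fold lower in stimulated controls (-4.11 ± 0.14, edgeR adjusted p = 3.22e-13). The stimulated libraries held 53 to 93 reads of Pparg and the vehicle libraries 1207 to 2326. The interaction of -0.36 ± 0.2 was not called (edgeR adjusted p = 0.249).

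Ppard encodes PPARδ, a widely expressed fatty acid receptor, and it moved opposite to Pparg. Ppard (ENSMUSG00000002250, chromosome 17, 28232754 to 28301469, plus strand) had 7.65, 7.43 and 7.46 CPM in stimulated libraries labelled knockout, against 4.51, 3.94 and 4.29 CPM in vehicle libraries of that label. It had 9, 9.98 and 9.64 CPM in stimulated controls, against 2.91, 3.29 and 3.69 CPM in vehicle controls. Each stimulated library was above each vehicle library of its genotype. The rise was 1.77-fold in libraries labelled knockout (0.83 ± 0.12, edgeR adjusted p = 1.96e-05). In controls it was 2.91-fold (1.54 ± 0.12, edgeR adjusted p = 1.7e-08).

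The response of Ppard was smaller in libraries labelled knockout, with an interaction of -0.71 ± 0.17 (edgeR adjusted p = 0.0224). Libraries labelled knockout lay above controls in vehicle and below them after stimulation, without overlap in either. Neither difference was called, at 0.37 ± 0.13 in vehicle (edgeR adjusted p = 0.152) and -0.34 ± 0.12 after stimulation (edgeR adjusted p = 0.055). The interaction missed the threshold when any 1 of 5 libraries was left out, namely vehicle control 1 or 2, stimulated control 2 or 3, or stimulated replicate 3 labelled knockout, with an edgeR adjusted p of up to 0.0766. Ppard rested on 73 to 186 reads per library.

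Within the PPAR pair the levels per exon length were near parity in stimulated libraries, while Pparg was far above Ppard in vehicle libraries. The ratio of Pparg to Ppard RPKM, reads per kilobase of exon, was 1.1, 1.58 and 1.48 in stimulated libraries labelled knockout and 0.942, 0.669 and 1 in stimulated controls. It was 57.7, 53.9 and 52.2 in vehicle libraries labelled knockout and 50, 43.6 and 38.6 in vehicle controls. Pparg thus held on average 57.8% of the summed level of the pair in stimulated libraries labelled knockout and 46.2% in stimulated controls, against 98.2% and 97.8% in vehicle libraries of the same labels. The mean log2 ratio differed between stimulated and vehicle by -5.32 in libraries labelled knockout and by -5.67 in controls, with no overlap in either. Ppara, the remaining PPAR, had 0 to 2 reads per library and was not tested.

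**Figure D3:**
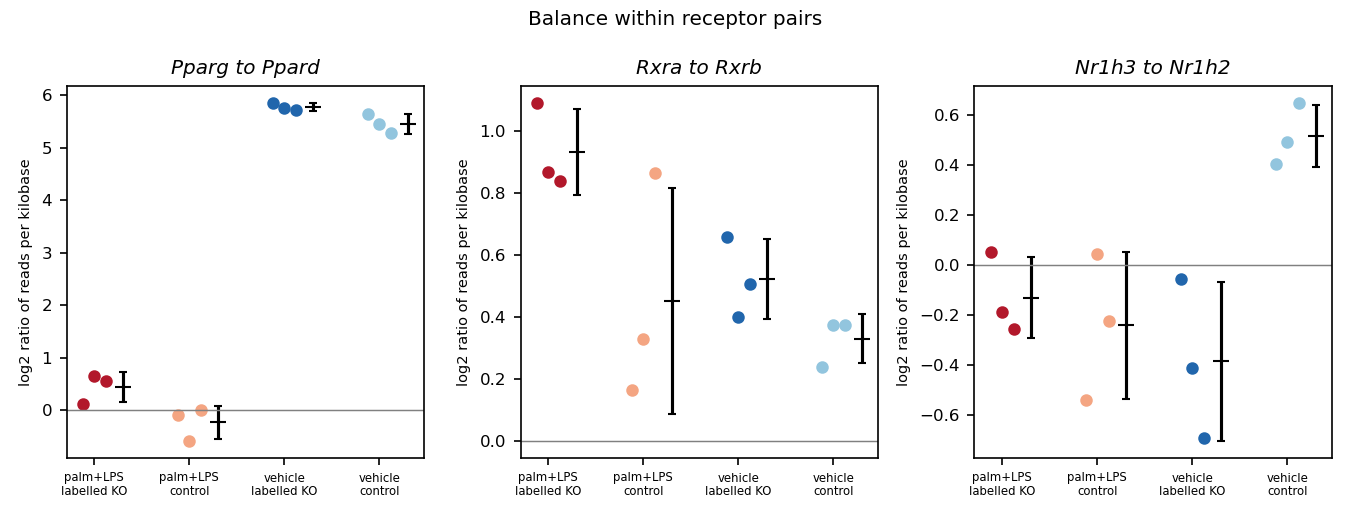
Log2 ratio of RPKM (y axis) between the paired members of each receptor family, one point per library with the group mean ± SD as a bar, by group from stimulated libraries labelled knockout to vehicle controls; the line at 0 marks equal level per length. The ratio of Pparg to Ppard averages 0.45 and -0.22 in the stimulated groups and 5.77 and 5.45 in the vehicle groups, and that of Nr1h3 to Nr1h2 is above 0 on average in vehicle controls (0.52).

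Of the RXRs, the partners of both families, Rxra was called in 1 comparison and Rxrb in none. Rxra (ENSMUSG00000015846, chromosome 2, 27676440 to 27762957, plus strand) had 29.2, 22.9 and 21.7 CPM in stimulated libraries labelled knockout and 17.3, 19.9 and 21.3 CPM in stimulated controls. It had 18.5, 18.9 and 19.8 CPM in vehicle libraries labelled knockout and 19.6, 20.2 and 18.3 CPM in vehicle controls. The stimulated libraries labelled knockout were the highest of the 4 groups, with replicate 1 above the other 2. Their rise over vehicle was 0.37 ± 0.11 (edgeR adjusted p = 0.00992), and without stimulated replicate 1 labelled knockout it was 0.23 and missed the threshold (edgeR adjusted p = 0.0797). In controls stimulation changed Rxra by 0.01 ± 0.12 (edgeR adjusted p = 0.956), and the interaction of 0.36 ± 0.16 was not called (edgeR adjusted p = 0.173).

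Rxrb (ENSMUSG00000039656, chromosome 17, 34031812 to 34038393, plus strand) had 8.2 to 9.29 CPM in stimulated libraries labelled knockout, 7.93 to 10.7 CPM in stimulated controls, 7.91 to 9.67 CPM in vehicle libraries labelled knockout and 9.55 to 11.3 CPM in vehicle controls. No comparison called it, with differences from -0.21 to 0.05. Rxra held 65.6% of the summed RPKM of the RXR pair in stimulated libraries labelled knockout, 57.7% in stimulated controls, 59% in vehicle libraries labelled knockout and 55.7% in vehicle controls. Rxrg, the remaining RXR, had 0 to 5 reads and was not tested.

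Nr1h3 encodes LXRα, the LXR that is enriched in macrophages and liver, and it was the member whose response differed most between the labelled genotypes. Nr1h3 (ENSMUSG00000002108, chromosome 2, 91184061 to 91202834, minus strand) had 48.3, 37.5 and 36.5 CPM in vehicle libraries labelled knockout, against 84.6, 82.7 and 98.3 CPM in vehicle controls. The groups were far apart, and the level was 2.17-fold lower in vehicle libraries labelled knockout (-1.12 ± 0.12, edgeR adjusted p = 2.12e-05). Of 12914 genes it ranked 37 by p-value. Without the replicate that stood apart the difference was -1.26 ± 0.09.

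After stimulation the difference in Nr1h3 was near 0. Nr1h3 had 68, 63.7 and 62.3 CPM in stimulated libraries labelled knockout, against 58, 72.3 and 62.7 CPM in stimulated controls. These groups overlapped, with a difference of 0.01 ± 0.11 (edgeR adjusted p = 0.974) and a 95% interval of -0.24 to 0.25. Relative to vehicle, Nr1h3 rose 1.59-fold in libraries labelled knockout (0.67 ± 0.12, edgeR adjusted p = 9.2e-05). In controls it fell to 0.727 of its vehicle level (-0.46 ± 0.11, edgeR adjusted p = 0.00213). The interaction was 1.13 ± 0.16 (edgeR adjusted p = 0.00111), and it was called in all 17 alternative settings, at 1.04 to 1.26. Nr1h3 shares 34 exonic bases with Gm13783 on the same strand, which had 0 to 7 reads.

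Nr1h2 encodes LXRβ, the broadly expressed LXR, and it did not follow Nr1h3. Nr1h2 (ENSMUSG00000060601, chromosome 7, 44549616 to 44553951, minus strand) had 87.7, 97.2 and 99.4 CPM in stimulated libraries labelled knockout, against 67.2, 66.7 and 78.7 CPM in vehicle libraries of that label. It had 113, 93.7 and 98 CPM in stimulated controls, against 85.5, 78.6 and 83.9 CPM in vehicle controls. Stimulated libraries were above vehicle libraries in both genotypes, by 0.42 ± 0.09 in libraries labelled knockout (edgeR adjusted p = 0.000907) and by 0.3 ± 0.09 in controls (edgeR adjusted p = 0.0106). In controls that call was lost without stimulated replicate 1 (edgeR adjusted p = 0.0615) or vehicle replicate 2 (edgeR adjusted p = 0.0504). The genotype differences of Nr1h2 were -0.22 ± 0.09 in vehicle and -0.1 ± 0.09 after stimulation, neither called, and its interaction was 0.12 ± 0.13 (edgeR adjusted p = 0.577).

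Per exon length, Nr1h3 held 43.4% of the summed LXR level in vehicle libraries labelled knockout, against 58.8% in vehicle controls. It held 47.8% in stimulated libraries labelled knockout and 45.9% in stimulated controls. The mean log2 ratio of Nr1h3 to Nr1h2 was -0.38 ± 0.32 in vehicle libraries labelled knockout and 0.52 ± 0.12 in vehicle controls (SD, n = 3 each), without overlap. Vehicle controls were the only group of these 4 in which Nr1h3 exceeded Nr1h2 on average.

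Ppargc1b encodes PGC-1β and fell with stimulation, like Pparg. Ppargc1b (ENSMUSG00000033871, chromosome 18, 61298136 to 61400431, minus strand) had 2.12, 2.33 and 2.68 CPM in stimulated libraries labelled knockout, against 6.71, 7.33 and 8.04 CPM in vehicle libraries of that label. It had 2.37, 1.94 and 3.26 CPM in stimulated controls, against 6.95, 7.39 and 6.67 CPM in vehicle controls. The 2 treatments did not overlap. It was 3.09-fold lower in stimulated libraries labelled knockout (-1.63 ± 0.17, edgeR adjusted p = 3.77e-07) and 2.77-fold lower in stimulated controls (-1.47 ± 0.17, edgeR adjusted p = 1.15e-06). Genotype differences were 0.07 ± 0.15 in vehicle and -0.09 ± 0.19 after stimulation, neither called.

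Ncoa1 encodes SRC-1, a p160 coactivator that docks on liganded receptors. Ncoa1 (ENSMUSG00000020647, chromosome 12, 4247363 to 4477182, minus strand) had 26.6, 31.2 and 26.6 CPM in stimulated libraries labelled knockout, against 19.3, 19.1 and 16.4 CPM in vehicle libraries of that label. It had 19.9, 24.9 and 24 CPM in stimulated controls, against 16.9, 18.8 and 18.6 CPM in vehicle controls. Stimulated libraries were higher in both genotypes, by 0.62 ± 0.11 in libraries labelled knockout (edgeR adjusted p = 0.000105) and by 0.34 ± 0.11 in controls (edgeR adjusted p = 0.0122). In controls the call was lost without vehicle replicate 1 (edgeR adjusted p = 0.0576) or stimulated replicate 2 (edgeR adjusted p = 0.0605). The interaction of 0.28 ± 0.16 was not called (edgeR adjusted p = 0.253).

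Ncor1 encodes NCoR1, the corepressor that recruits histone deacetylase 3 to unliganded receptors. Ncor1 (ENSMUSG00000018501, chromosome 11, 62316426 to 62458541, minus strand) had 36.6, 34.3 and 34.1 CPM in stimulated libraries labelled knockout, 31.9, 29.5 and 29.6 CPM in stimulated controls, 32.2, 33.8 and 34.5 CPM in vehicle libraries labelled knockout, and 35.9, 36.3 and 29.4 CPM in vehicle controls. No comparison called it in the fit of all libraries. Without vehicle control 3, Ncor1 was called lower with stimulation in controls (-0.25, edgeR adjusted p = 0.0229). Over all 12 libraries its largest difference between 2 groups was 0.21 ± 0.09, between stimulated libraries labelled knockout and stimulated controls, which did not overlap (edgeR adjusted p = 0.14). Ncor1 shares 82 exonic bases (0.64% of its length) with Pigl on the opposite strand, and the strand setting of the counting is not given in the sources used here.

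Among stimulated libraries, 4 members lay apart by labelled genotype without overlap (Rxra, Ncor1 and Ncoa1 higher, Ppard lower), where 42.2% of all genes did. None was called in the fit of all 12 libraries, with edgeR adjusted p from 0.055 to 0.14. Without vehicle replicate 1 labelled knockout, which shares the estimate of the spread but is in neither group, all 4 were called (edgeR adjusted p from 0.0107 to 0.0475). That fit called 4080 genes in all, against 2081 of 12914 in the fit of all 12 libraries. Fitted on the 6 stimulated libraries alone, the same count of 4 members was called, among 3811 genes called in all.

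On the per-length scale the order of the 9 genes differed by treatment. Nr1h2 and Nr1h3 led in stimulated libraries, at 28.1 and 25.7 RPKM in those labelled knockout and at 30.2 and 25.6 RPKM in controls, and the libraries of these 2 genes overlapped in both groups. Rxra and Ncoa1 followed, at 4.5 and 3.84 RPKM in stimulated libraries labelled knockout and at 3.57 and 3.13 RPKM in stimulated controls, again with overlap. In vehicle libraries labelled knockout the top 3 were Pparg (50.1 RPKM), Nr1h2 (21.1) and Nr1h3 (16.2), and in vehicle controls Nr1h3 (35.2), Pparg (31.1) and Nr1h2 (24.6), with no overlap between neighbours. Pparg was 7 of 9 in stimulated libraries labelled knockout (2.25 RPKM) and 8 of 9 in stimulated controls (1.79 RPKM). Ppargc1b was lowest in both stimulated groups (0.596 and 0.633 RPKM) and Ppard in both vehicle groups (0.917 and 0.712 RPKM). Rxrb, Ncor1 and Ncoa1 overlapped with at least 1 neighbour in the vehicle groups and did not differ from it beyond their spread.

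**Figure D4:**
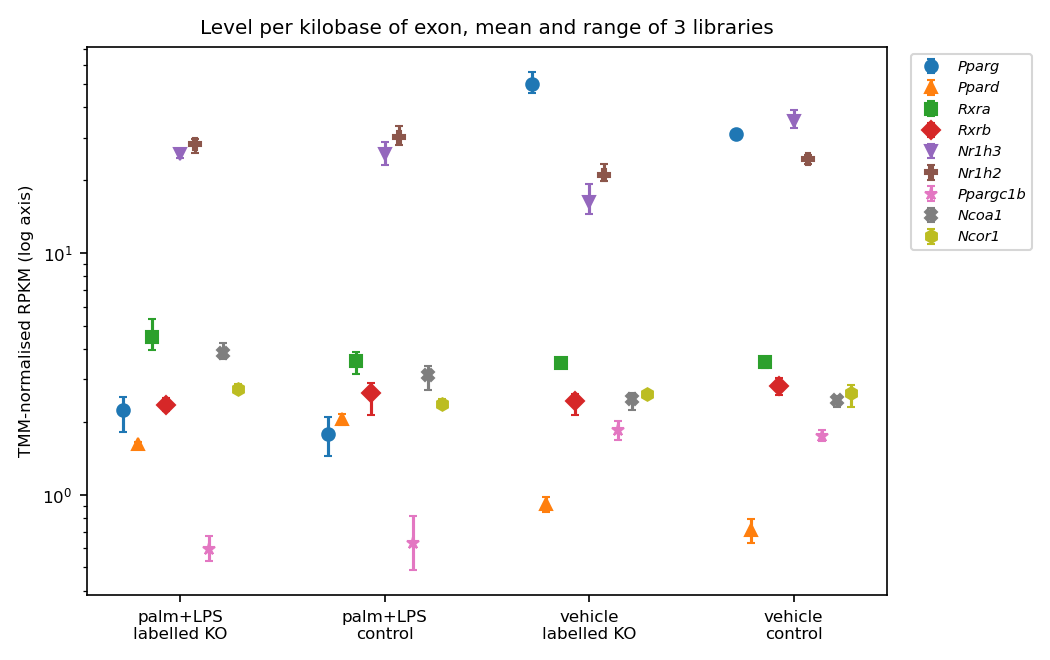
Mean TMM-normalised RPKM (y axis, log scale) of the 9 genes in each group, with the range over 3 libraries as a bar, by group from stimulated libraries labelled knockout to vehicle controls. Pparg is among the top 2 in the vehicle groups (50.1 and 31.1 RPKM) and 7 or 8 of 9 in the stimulated groups (2.25 and 1.79 RPKM).

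The genes most like each member were taken by Pearson correlation of log2 TMM CPM over the 12 libraries, among 7411 genes with at least 10 CPM in their highest group, and are a description only. The 12 points share their scaling and fall into 2 treatments. The closest to Pparg were Kctd12 (r = 0.997), Mtss1 (0.997) and Lair1 (0.996), and to Ppard Alas1 (0.994), Cd14 (0.992) and Il1f9 (0.99). For Ppargc1b they were Pak1 (0.991), Arsk (0.988) and B3glct (0.985). For Nr1h2 they were Sf3a2 (0.981) and Sf3b4 (0.955), for Ncoa1 Dcakd (0.953), Lrp4 (0.952) and Nfyb (0.944), and for Rxra Hmgxb4 (0.879), Srrm1 (0.873) and Ckap5 (0.856).

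For Nr1h3 the closest was Plin2 (r = 0.985), which encodes the lipid droplet coat protein perilipin 2, ahead of Tm6sf1 (0.878) and Snx27 (0.865). Plin2 had 2460, 2502 and 2350 CPM in stimulated libraries labelled knockout and 2138, 2341 and 2342 CPM in stimulated controls. It had 1697, 1384 and 1359 CPM in vehicle libraries labelled knockout and 2856, 2925 and 3263 CPM in vehicle controls. As with Nr1h3, vehicle controls were highest and vehicle libraries labelled knockout lowest. The change of Plin2 with stimulation was 0.72 ± 0.09 in libraries labelled knockout (edgeR adjusted p = 3.81e-06) and -0.41 ± 0.09 in controls (edgeR adjusted p = 0.00104).

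**Figure D5:**
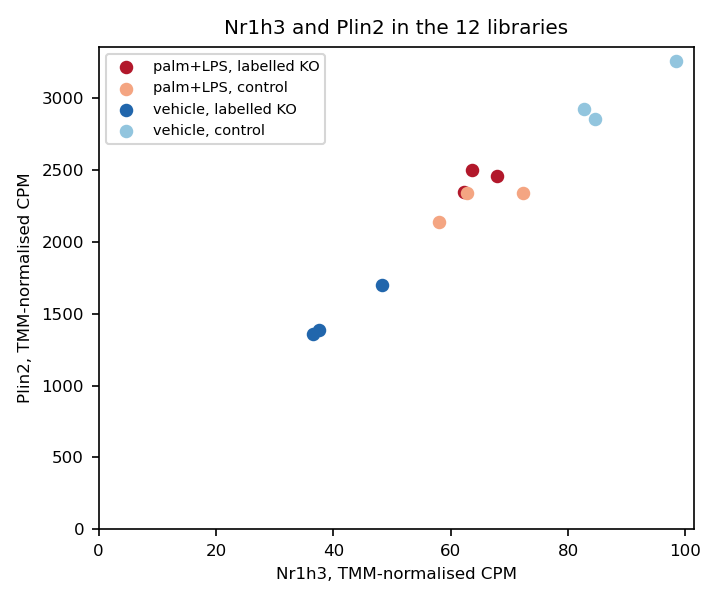
TMM-normalised CPM of Nr1h3 (x axis) and Plin2 (y axis) in the 12 libraries, coloured by group. Vehicle controls lie at the upper right (82.7 to 98.3 and 2856 to 3263 CPM), vehicle libraries labelled knockout at the lower left (36.5 to 48.3 and 1359 to 1697 CPM), and both stimulated groups between them.

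Genes known as LXR targets did not share 1 direction. For this and the later lists, the shares of all genes called were 3.8% by genotype in vehicle and 16.1% after stimulation. They were 69.4% with stimulation in libraries labelled knockout, 66.7% in controls and 8.05% in the interaction. Without vehicle replicate 1 labelled knockout, 789 genes were called by genotype in vehicle, 4080 after stimulation and 1752 in the interaction. In the fit of all libraries these counts were 491, 2081 and 1039. Of 17 LXR targets listed, 16 were tested. In vehicle, 1 was higher and 2 were lower in libraries labelled knockout: Arl4c (1.16 ± 0.12), Abcg1, a cholesterol exporter (-0.86 ± 0.12), and the efferocytosis receptor gene Mertk (-0.58 ± 0.15), with a list median of -0.17. Mertk lost its call without any 1 of 7 libraries, namely each vehicle control, stimulated control 2 or 3, or stimulated replicate 2 or 3 labelled knockout (edgeR adjusted p up to 0.157). Without vehicle replicate 1 labelled knockout 5 were called, 2 higher and 3 lower. After stimulation 2 were higher and 3 lower, among them Lpcat3, a phospholipid remodelling enzyme (-0.62 ± 0.08), Abcg1 (-0.57 ± 0.12) and Arl4c (0.54 ± 0.13), and without that replicate 8 were called, 4 in each direction. Arl4c lost its call without stimulated control 1 (edgeR adjusted p = 0.0528). Leaving out stimulated control 1 or 3, or stimulated replicate 1 labelled knockout, gave 3 called.

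With stimulation, 8 of 16 LXR targets were lower and 2 higher in libraries labelled knockout (69.4% of all genes were called). In controls 9 were lower and 3 higher (66.7% of all genes). The medians were -0.4 and -0.65, against -0.06 and -0.05 for all genes. Smpdl3a, a phosphodiesterase gene, differed by -1.23 ± 0.08 in libraries labelled knockout and by -1.01 ± 0.08 in controls, and Pltp, the phospholipid transfer protein gene, by -1.07 ± 0.08 and -0.91 ± 0.08 in the same order. Mertk rose in libraries labelled knockout (1.53 ± 0.15), and its interaction was called (1.13 ± 0.21, edgeR adjusted p = 0.00517). Of the 16, 2 others had a called interaction, both lower, Lpcat3 (-0.4 ± 0.11, edgeR adjusted p = 0.0407) and Arl4c (-0.62 ± 0.18, edgeR adjusted p = 0.0434). Without vehicle replicate 1 labelled knockout 5 were called, 1 higher and 4 lower. Leaving out any 1 of 8 libraries (the 3 vehicle controls, the 3 stimulated libraries labelled knockout, or stimulated control 2 or 3) left 1 called, as higher.

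Of 24 listed PPAR targets 22 were tested. In vehicle 0 were higher and 7 lower in libraries labelled knockout, with a median of -0.22 against 0.01 for all genes, while Pparg itself was higher. The 3 with the smallest p-value were Mgll, a monoglyceride lipase (16.3 ± 0.917 CPM against 68.2 ± 0.855 CPM in controls), Angptl4, an inhibitor of lipoprotein lipase (1.25 ± 0.287 against 8.5 ± 0.741 CPM), and Plin2 (SD, n = 3 each). Without vehicle replicate 1 labelled knockout 11 were lower and 0 higher. In stimulated libraries 4 were higher and 5 lower, among them Klf4 (0.94 ± 0.13), the fatty acid receptor gene Cd36 (-0.91 ± 0.08) and Mgll (-0.91 ± 0.11).

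With stimulation the PPAR targets moved in both directions. In libraries labelled knockout 8 were higher and 13 lower (69.4% of all genes were called), and in controls 6 were higher and 15 lower (66.7%). The list medians were -0.32 and -0.4 in that order, against -0.06 and -0.05 for all genes. Tgm2, a transglutaminase gene, rose by 3.56 ± 0.11 in libraries labelled knockout and 3.23 ± 0.11 in controls, and Acsl1, which activates long-chain fatty acids, by 2.84 ± 0.13 and 2.25 ± 0.13 in that order. Mgll was lower in both, at -0.38 ± 0.11 in libraries labelled knockout and -1.53 ± 0.1 in controls. The interaction was called for 7 of 22, 6 higher and 1 lower, with Angptl4 at 3.37 ± 0.23, Mgll at 1.16 ± 0.14 and Plin2 at 1.13 ± 0.13, and for 12 without vehicle replicate 1 labelled knockout, 10 higher and 2 lower.

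Of 25 other nuclear receptors listed 20 were tested. In vehicle edgeR called 0 of 20 by labelled genotype, as did DESeq2, and 1 was called without vehicle replicate 3 labelled knockout. There were 3 at an unadjusted edgeR p under 0.05, where at least 1570 of all 12914 genes were. After stimulation 1 was lower, the circadian receptor gene Rora (-0.48 ± 0.11). With stimulation 4 were higher and 6 lower in libraries labelled knockout (69.4% of all genes were called), and 6 higher and 8 lower in controls (66.7%). The glucocorticoid receptor gene Nr3c1 rose by 1.15 ± 0.1 in libraries labelled knockout and 1.01 ± 0.1 in controls, and Nr1d1, which encodes the circadian repressor REV-ERBα, fell by 1.76 ± 0.18 and 2.14 ± 0.18 on the log2 scale in that order. Rarb, a retinoic acid receptor gene, averaged 0.0743 CPM in stimulated libraries labelled knockout against 2.6 CPM in vehicle ones, and 0.228 CPM in stimulated controls against 2.79 CPM in vehicle controls. The interaction was called for 1 of 20, Rora, as lower (-0.63 ± 0.15, edgeR adjusted p = 0.02255). That call was lost with the replicate block. It was also lost without any vehicle control, stimulated control 1 or 3, or stimulated replicate 1 or 3 labelled knockout (edgeR adjusted p up to 0.063).

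Of 25 other coregulators listed 23 were tested. With stimulation 9 were higher and 8 lower in libraries labelled knockout, where 69.4% of all genes were called. In controls 8 were higher and 10 lower, where 66.7% of all genes were called. Ppargc1a, which encodes PGC-1α, the relative of PGC-1β, fell as Ppargc1b did, with 0.72 ± 0.127 CPM in stimulated libraries labelled knockout against 4.82 ± 0.732 CPM in vehicle ones, and 0.211 ± 0.00434 CPM in stimulated controls against 3.33 ± 0.473 CPM in vehicle controls (SD, n = 3 each). Lpin1, a phosphatidate phosphatase that also coactivates PPARα, differed by -3.77 ± 0.16 in libraries labelled knockout and by -3.42 ± 0.15 in controls. Ncoa7 rose by 1.85 ± 0.1 in libraries labelled knockout and 1.16 ± 0.1 in controls, with a called interaction of 0.7 ± 0.14 (edgeR adjusted p = 0.00786). The interaction was called for 2 of 23, both higher, and for 4 without vehicle replicate 1 labelled knockout, 3 higher and 1 lower, and for 1 without any 1 of the 8 libraries named above for the LXR targets. Between labelled genotypes 1 coregulator was lower in vehicle (Ncoa4, not called without vehicle control 1 or 2), and after stimulation 3 were higher and 1 lower, or 8 higher and 1 lower without vehicle replicate 1 labelled knockout.

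Scaling by total count instead of TMM shifted the median change of all genes with stimulation to -0.42 in libraries labelled knockout and -0.38 in controls. Of the genes called, 28.9% and 29.2% were then higher, against 48.6% and 48% under TMM in the same order. Among the 9 members 3 were then higher and 4 lower in libraries labelled knockout, and 1 higher and 6 lower in controls. Pparg, Ppard, Nr1h3 and Ppargc1b kept their direction and call in both, while Rxra, Nr1h2, Ncoa1 and Ncor1 lost a call or changed sign in at least 1, and Rxrb and Ncor1 were called lower in both. The directions given above for Rxra, Nr1h2 and Ncoa1 with stimulation are thus relative to the other genes as TMM scales them. PPAR targets were then 7 higher and 14 lower in libraries labelled knockout and 3 higher and 16 lower in controls, LXR targets 1 higher and 11 lower in each, other receptors 3 higher and 10 lower and 3 higher and 9 lower, and other coregulators 8 higher and 13 lower and 5 higher and 11 lower, in the same order.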

How the data were processed

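RNA from 12 libraries, 3 in each of 4 groups taken from the sample titles, was column-purified (Ambion) and converted to libraries by SMARTer v1 (Clontech), per the labels' protocols. Per the submitters' processing notes, the tools were STAR 2.0.4b, featureCounts 1.45 of Subread and bcl2fastq 2.0, with GRCm38 as the build. Their options, the annotation release and whether strand was used are not given in the sources used. Each deposited table held the authors' raw count, CPM and RPKM for 41388 Ensembl genes. The deposited CPM was that count relative to the total of its library, and the deposited RPKM that value per kilobase of exon. Only the deposited counts were tested.

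Genes were filtered with edgeR's filterByExpr, which left 12914 genes with at least 99.9% of each library's counts, scaled by TMM, and tested by edgeR 4.0.16's robust quasi-likelihood F-test (R 4.3.3) over all 12 libraries with 1 mean per group. P-values were adjusted by Benjamini-Hochberg over all tested genes of a comparison, at a threshold of 0.05. RPKM in the text is TMM CPM per kilobase of deposited exon length. The fit was run on simulated counts with known changes in vehicle libraries labelled knockout. That run covered only the genotype comparison in vehicle and stimulation in controls, so it does not check the other comparisons. Alternatives were DESeq2 1.42.0, RLE and total count scaling, no filter, fits of only the groups compared, the replicate block and each library left out. Beside the 9 members, the text names up to 3 called genes of each pathway list with the smallest adjusted p in a comparison, and the 3 genes most like a member (for Pparg and the members called with stimulation), of which 1 is not reported here. The members and lists were chosen with earlier results of these data known. Start sequences are from RefSeq.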

Additional observations from a re-analysis of the deposited data

Results flagged for a closer look

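For 2 of the 9 members the effect of stimulation differed between libraries labelled knockout and controls by the interaction test of edgeR. Nr1h3 had an interaction of 1.13 on the log2 scale and Ppard one of -0.71. Among the named PPAR targets the same test flagged 3, Angptl4 at 3.37, Mgll at 1.16 and Plin2 at 1.13. Interactions called in the other lists are given above. With 3 libraries per group no single library was tested for standing apart from its group.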

How the results depend on the processing

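Settings were RLE and total count scaling, DESeq2, no low-count filter, only the 2 groups compared, the replicate block and each library left out; those for pathway lists were added after seeing the data. Over 801 recomputed member values 744 kept direction and call and 30 changed sign, some of which also lost or gained a call. Of those that kept their sign, 13 lost a call and 14 gained one. Calls of Pparg and Nr1h3 in vehicle, of Nr1h3 in the interaction, and of Pparg, Ppard, Nr1h3 and Ppargc1b with stimulation stood in every setting. The lowest count of a member was 36 reads, for Ppargc1b in stimulated libraries, and counts of that size limit precision. The causes of the changes below were not tested.

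Genes called by genotype in vehicle numbered 960 with no filter, 229 with only the 2 groups and 261 to 789 leaving out a library. After stimulation they numbered 3811 with only the 2 groups and 1227 to 4080 leaving one out, and for the interaction 1875 with no filter, 514 with the replicate block and 428 to 1962 leaving one out. Members called after stimulation numbered 1 under total count (Ppard, -0.43), 4 with only the 2 groups and 0 to 4 leaving one out (4 without vehicle replicate 1 labelled knockout, 1 without stimulated replicate 3 labelled knockout), and in the interaction 1 with the block and 1 to 2 leaving one out. Called genes after stimulation were 34.8% higher under total count against 62.1%, and 33% against 58.4% in the interaction.

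Signs changed under total count for Ncoa1 in vehicle (-0.0361), Nr1h3 after stimulation (-0.0744), Rxra (-0.33, edgeR adjusted p = 0.0268) and Nr1h2 (-0.0328) with stimulation in controls, and Rxra (-0.0058) and Ncor1 (-0.31, edgeR adjusted p = 0.0214) in libraries labelled knockout. With no filter they changed for Ncoa1 in vehicle (-9e-04), Nr1h3 after stimulation (-0.0012) and Rxra in stimulated controls (-0.0175). Leaving out a library gave -0.0629 to 0.0056 for Rxra, -0.1083 to 0.0336 for Ncor1 and -0.0372 to 0.0852 for Ncoa1 in vehicle, and -0.0745 to 0.0976 for Nr1h3 and -0.243 to 0.1416 for Ppargc1b after stimulation. In controls it gave -0.0579 to 0.1009 for Rxra and -0.1894 to 0.0175 for Rxrb, and in the interaction -0.0764 to 0.1291 for Rxrb and -0.3155 to 0.0696 for Ppargc1b. The log2 ratio of Rxra to Rxrb with stimulation in controls was -0.0826 to 0.2661 and that of Nr1h3 to Nr1h2 by genotype after stimulation -0.0409 to 0.2523.

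Deviations from group means of same-numbered libraries correlated at -0.31 to 0.07 over 18 pairs, and those of different-numbered libraries at -0.18 to 0.27 over 36 pairs. Of 12 libraries 1 correlated best with its own number. With means of 3 libraries, this check cannot show whether same-numbered libraries shared mice or cultures. With the replicate block 349 genes were called in vehicle, 1549 after stimulation, 8724 with stimulation in libraries labelled knockout and 8374 in controls, and the Ppard interaction of -0.71 had an edgeR adjusted p of 0.0532.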
